A study of Mus musculus with 12 samples.

Results

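The interaction of Sphk1 genotype and oxygen asks whether newborn mice that lack sphingosine kinase 1 changed lung gene expression under hyperoxia by as much, and in the same direction, as wild type pups did. All 12 arrays of the series bear on it, in 4 groups of 3: wild type pups in room air (WT RA), wild type pups in hyperoxia (WT HO), Sphk1-/- pups in room air (SK RA) and Sphk1-/- pups in hyperoxia (SK HO). Hyperoxia was 75% oxygen from day 1 after birth for 7 days, and room air pups were of the same age. The Sphk1-/- allele had been backcrossed to C57BL/6, and the controls were F2 hybrids of mixed background, so the groups can also differ at other loci, and genotype and background cannot be told apart. Litters were held to at most 6 pups a nursing dam, and dams were moved between room air and hyperoxia, so every dam had part of the exposure. Each array held RNA from the superior lobe of the right lung, the whole lobe with all its cell types. The methods describe 1 array a mouse, but litters are not given, so spread between arrays is spread between pups that may share a dam.

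Sphingosine kinase 1 phosphorylates sphingosine to sphingosine 1-phosphate (S1P), a lipid that signals through a family of G protein-coupled receptors and bears on cell survival, lymphocyte traffic and vascular permeability. In the first days of life the mouse lung divides its sacs into alveoli, with proliferation of epithelium, endothelium and fibroblasts, new elastic fibres and new basement membrane. High oxygen at this age injures these cells and is used to model bronchopulmonary dysplasia, the lung disease of preterm infants. An interaction is the difference between the responses of the genotypes, here (SK HO - SK RA) minus (WT HO - WT RA) on the log2 scale, where 1 unit is a doubling. A positive interaction means that the SK response lay above the WT response, and a negative one that it lay below.

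All values are log2 expression per row of the array, each row being a probe set that stands for a transcript or part of it, and levels are compared only between groups for the same row. The lobes carried lung markers on every array: Sftpc, the surfactant protein C gene of type 2 alveolar cells, read 12.59 to 13.40, and its interaction was not called. Methods describe male pups, but the mean of the Y-linked genes Eif2s3y, Kdm5d and Uty was 6.62 to 6.95 on 4 arrays (SK HO 1, SK HO 2, SK RA 1 and WT RA 3) and 2.88 to 3.29 on the other 8. No WT HO array was among the 4, so Y-linked signal was not balanced over the groups. SK RA 1 and SK HO 1 had the highest array medians, 4.99 and 4.89 against 4.76 to 4.85, and correlated least with their own groups, with a median r of 0.963 and 0.964 across rows. With both left out, 1613 rows were called in place of 1979, and with the Y-linked mean as a covariate 1752. Sphk1 itself read 5.37, 4.90 and 5.40 in WT RA, 5.59, 5.78 and 5.84 in SK RA, 6.79, 7.50 and 7.04 in WT HO and 5.70, 6.28 and 5.57 in SK HO. Its row rose by 1.89 in WT pups (adjusted p = 0.000259) and not measurably in SK pups (0.11, adjusted p = 0.897). In room air the SK arrays read no lower than the WT arrays (0.51, adjusted p = 0.386). The files do not say whether its probes fall inside the deleted sequence, so the genotype labels cannot be checked on this row.

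Of 41345 rows tested with limma, 1979 (4.79%) had an interaction with a Benjamini-Hochberg adjusted p under 0.05, 906 positive (2.19%) and 1073 negative (2.6%). They carried 1564 of 22180 gene symbols (7.05%), the share to set beside the counts of the gene lists below. The median standard error was 0.27, and 1544 of the called rows had an estimate of 1 or more in either direction, 396 of them 2 or more. Over all rows the median interaction was -0.03. To show the threshold, each gene symbol was taken at its row with the highest mean, with predicted, clone, small RNA and sex-linked symbols left out. The last such gene inside it was Bcl2l1 (-1.07, adjusted p = 0.04985), and the next outside was Lrrn3 (1.28, adjusted p = 0.05001). The WT response was called in 6171 rows (14.9%), 3547 higher in hyperoxia (8.58%) and 2624 lower (6.35%), and the SK response in 967 (2.34%), 422 higher (1.02%) and 545 lower (1.32%). Sorting the 1979 rows by these calls gave 1528 whose response was called in WT pups alone, here called lost (77.2%), in near balance between 772 that rose and 756 that fell in WT pups. Another 39 were called in both genotypes in the same direction but smaller in SK pups (weakened), 108 were called in both in opposite directions (reversed), 142 were called in SK pups alone (gained), 11 were larger in SK pups (strengthened) and 151 were called in neither genotype by itself.

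Among the 772 lost rises the median response was 1.16 in WT and -0.19 in SK pups, and among the 756 lost falls it was -1.35 and 0.10. The SK estimate had the same sign as the WT estimate in 528 of the 1528 lost rows. An unadjusted p under 0.05 in SK pups was reached by 444 of them, 318 in the opposite direction and 126 in the same. The 71 reversed rows that rose in WT pups had median responses of 0.98 and -0.99, and the 37 that fell had -1.38 and 1.24. With responses called at an unadjusted p, 581 rows counted as reversed. Sizes of the smaller classes changed with 1 array left out: 55 rows were reversed and 82 gained without SK RA 2, 58 and 84 without SK RA 3, and 93 and 92 were called in neither genotype without WT HO 1 or SK HO 1. Negative interactions numbered 688 to 708 without WT RA 1, WT RA 2 or WT HO 1, and the count in all ran from 1349 without WT RA 2 to 2365 without SK HO 2. The weakened class held 11 to 23 rows without any 1 of 9 arrays (all but SK RA 1, SK HO 1 and SK HO 2), and the strengthened class 3 to 7 without any 1 of 9 (all but SK RA 1, SK HO 2 and SK HO 3). The scatter of SK against WT responses shows lost rows as a band along the WT axis and reversed rows in the corners where the signs differ.

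**Figure D1:**
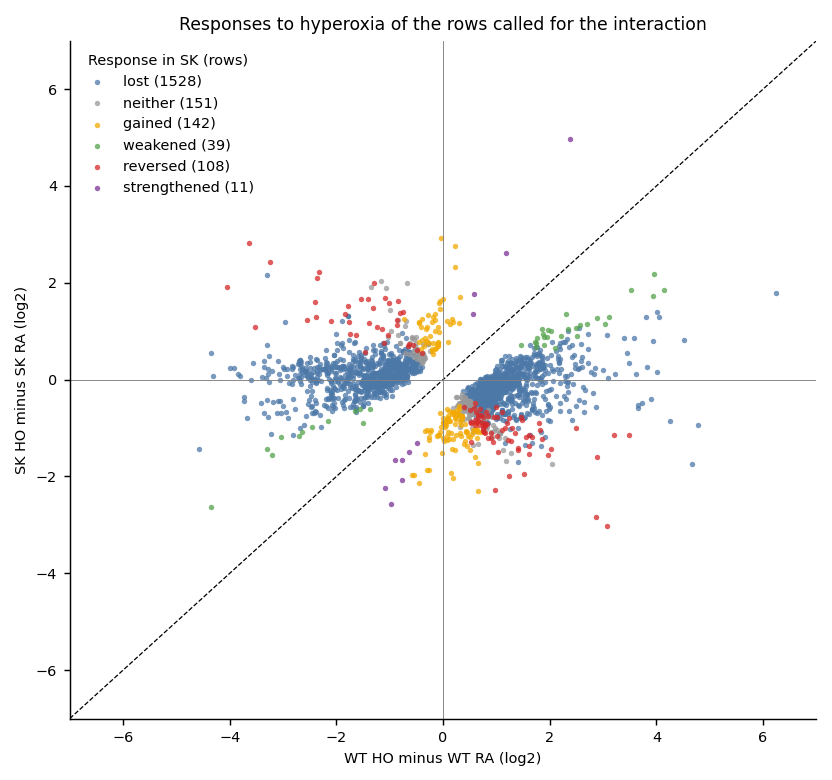
Response to hyperoxia of each of the 1979 interaction rows in WT pups (WT HO - WT RA, log2, horizontal) and in SK pups (SK HO - SK RA, log2, vertical), each point a row coloured by class, with a dashed line where both responses are equal. The 1528 lost rows spread along the horizontal axis near 0 on the vertical, and the 108 reversed rows lie in the upper left and lower right.

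An interaction can come from any of the 4 groups, so the arrays were read group by group. In 579 of the 1979 rows (29.3%) all 3 WT HO arrays lay above all 9 others, against 6.52% of all rows, and in 626 (31.6%) they lay below, against 5.01%. SK HO lay below the rest in 94 rows (4.75%, against 0.878% of all rows) and above it in 81 (4.09%, against 0.822%). WT RA lay below in 80 (4.04%, against 1.47%) and above in 78 (3.94%, against 1.22%). SK RA lay above in 68 (3.44%, against 1.61%) and below in 13 (0.657%, against 0.992%). In 360 (18.2%) no group stood outside the other 9 arrays. Over all rows 18.5% had any group apart. The lost and weakened classes carried most of the WT HO rows. In the gained class SK HO lay below the rest in 48 of 142 rows (33.8%) and above it in 38 (26.8%), and SK RA above it in 31 (21.8%). The genotypes differed in hyperoxia (SK HO against WT HO) in 1375 of the 1979 rows (69.5%), where 5.74% of all rows did (2.82% higher and 2.92% lower), and in room air (SK RA against WT RA) in 383 (19.4%), where 1.15% did (0.556% higher and 0.59% lower). The counts of groups apart and these 2 comparisons use the same arrays as the interaction, so the shares describe it and are no separate evidence. Lost and weakened rows need a called WT response, so the WT HO share in these classes follows in part from how they were chosen. Of the 108 reversed rows 59 had a called difference in room air and 49 in both conditions, and of the 1528 lost rows 272 and 180. Whether those shares differ was not tested.

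**Figure D2:**
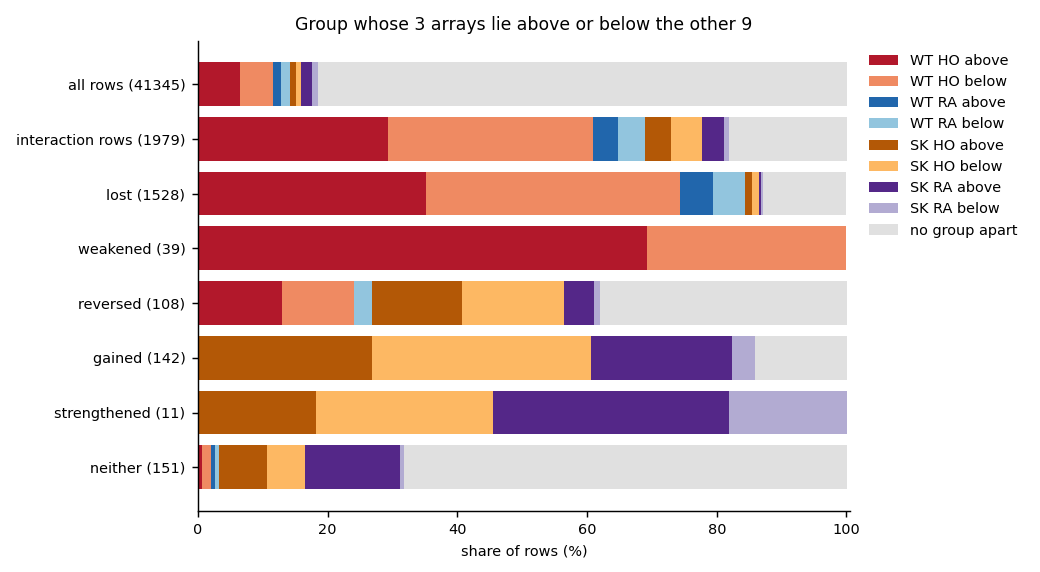
Share of rows (percent) in which all 3 arrays of 1 group lay above or below all 9 other arrays, stacked by group, for each class of interaction rows and for all 41345 rows. WT HO fills most of the bar in the lost and weakened classes, SK HO and SK RA most of it in the gained class, and 38.0% of the reversed rows had no group apart.

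Genes of G2 phase and mitosis carried the interaction as a block. This list, like the others, was written with earlier results of these data known, so its counts describe and do not test. Some genes belong to more than 1 list, so the counts of different lists can share genes. All 35 measured genes of the list were called positive, with estimates from 1.38 to 4.24, and each fell in WT pups (median -2.64). In SK pups the median response was 0.21, and Ckap2, which binds spindle microtubules, was the single member called there, as a rise (it was picked out after its value was seen). Mki67, whose product coats mitotic chromosomes, read 9.91, 9.91 and 9.82 in WT RA, 5.74, 5.93 and 6.02 in WT HO, 8.31, 8.04 and 8.15 in SK RA and 8.54, 8.33 and 8.38 in SK HO. Both SK groups thus lay between the WT groups without overlap, and the interaction was 4.24 ± 0.18 (SE, adjusted p = 2.48e-06). Kif11, the motor that separates the spindle poles, went from 8.03, 8.36 and 8.05 to 4.74, 4.65 and 4.88 in WT pups and from 6.54, 6.73 and 6.76 to 6.48, 6.93 and 6.80 in SK pups, an interaction of 3.45 ± 0.22 (adjusted p = 1.75e-05). The same order held across the list: 34 of the 35 had a lower level in room air in SK than in WT pups (median -1.42) and 33 were higher in SK HO than in WT HO (median 1.37). Its mean relative to the 12-array average was 1.22 to 1.40 in WT RA, -0.29 to 0.06 in SK RA, -1.37 to -1.22 in WT HO and 0.02 to 0.20 in SK HO. All 35 were called whichever array was left out. In whole lobes, fewer dividing cells and less of these transcripts in each cell cannot be told apart.

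The promoters of Kif11, of Kif23 (a kinesin of the cleavage furrow) and of Hmmr (a hyaluronan receptor that also binds the spindle) are printed because these genes moved together and because late cell cycle promoters are known for a CHR element, TTTGAA, near the start, often with CCAAT boxes upstream. The sequences are RefSeq, GRCm38.p6, from 150 bases before the start, 5′ to 3′ on the gene's strand, with TTTGAA and CCAAT on either strand in capitals (TTCAAA and ATTGG are the reverse complements). Kif11 is at chr19:37376232-37376431 on the plus strand, Kif23 at chr9:61946750-61946949 and Hmmr at chr11:40733388-40733587 on the minus strand.
Kif11: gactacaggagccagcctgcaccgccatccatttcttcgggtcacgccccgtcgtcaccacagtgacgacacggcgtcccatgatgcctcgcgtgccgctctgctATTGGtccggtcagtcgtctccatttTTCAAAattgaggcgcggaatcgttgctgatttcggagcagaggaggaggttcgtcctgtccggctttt
Kif23: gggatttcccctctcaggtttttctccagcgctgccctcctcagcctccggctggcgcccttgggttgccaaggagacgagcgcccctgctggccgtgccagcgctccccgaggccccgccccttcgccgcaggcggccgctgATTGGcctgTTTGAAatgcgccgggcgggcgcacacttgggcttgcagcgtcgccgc
Hmmr: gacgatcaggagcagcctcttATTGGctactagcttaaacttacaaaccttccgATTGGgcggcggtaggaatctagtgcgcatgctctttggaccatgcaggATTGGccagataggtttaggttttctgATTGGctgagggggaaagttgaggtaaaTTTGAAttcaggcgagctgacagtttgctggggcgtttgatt
TTTGAA beginning within 50 bases of the start on either side stood in 19 of the 27 promoters found for the list (70.4%), against 4.92% of 27025 mouse promoters of the same length and 4.03% of those of measured genes. With a CCAAT anywhere in the 300 base window, 17 of 27 held both (63.0%), against 2.11%. In the wider classes 74 of 491 promoters of lost falls held TTTGAA near the start (15.1%) and 10 of 433 promoters of lost rises (2.31%). A match is a description of letters and does not show a bound site, and the list was chosen with earlier results known.

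Most DNA replication and repair genes also lost their WT fall in SK pups. Of 26 measured S phase genes, 21 were called positive (18 to 21 with 1 array left out), with a median response of -1.31 in WT and 0.17 in SK pups, and the other 5 were not called. SK RA lay below WT RA in 16 of the 26 and SK HO above WT HO in 10. Mcm5, a subunit of the replicative helicase, fell from 7.88, 8.28 and 8.0 to 5.83, 6.04 and 6.23 in WT pups and stayed between 6.64 and 7.21 on all 6 SK arrays, with an interaction of 2.15 ± 0.26 (adjusted p = 0.000672). Of 13 genes of homologous recombination and the Fanconi pathway, 10 were called positive, Brca1 among them (2.18 ± 0.20, adjusted p = 0.000119), and 4 were lower in SK RA and 6 higher in SK HO than in the WT group of the same oxygen. TTTGAA near the start was found in 1 of 22 S phase promoters. By contrast the p53 targets, many of which arrest the cell cycle, rose in both genotypes. Of 18 measured, 16 were called higher in WT pups (median 1.56) and 10 in SK pups (median 1.03). A single target, Btg2, an antiproliferative gene, had an interaction: it rose from 8.65, 8.37 and 8.62 to 10.41, 10.13 and 10.29 in WT pups and read 9.08 to 9.46 on the SK arrays (-1.56 ± 0.20, adjusted p = 0.000949). That count was 2 without WT RA 2 and 3 without SK RA 1 or without SK HO 2.

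Genes of the basement membrane and of the Fras1-Frem complex, which anchors epithelium to the mesenchyme beneath it, also had mostly positive interactions. Of 21 measured, 15 were called positive and Lamc3, a laminin chain, negative, with medians of -1.19 in WT and 0.23 in SK pups. Fras1 read 8.28, 8.11 and 8.12 in WT RA and 4.31, 4.91 and 4.72 in WT HO, but 7.16, 7.15 and 7.12 in SK RA and 8.43, 7.67 and 8.57 in SK HO. It fell by 3.53 in WT pups and rose by 1.08 in SK pups (interaction 4.61 ± 0.32, adjusted p = 2.03e-05). Lama3, the laminin alpha chain of epithelial anchoring, likewise fell by 1.38 and rose by 1.18. Nid2, which links laminin to collagen IV, fell in WT pups from 8.66, 8.74 and 8.72 to 6.04, 6.30 and 6.09, while its SK response of -0.23 was not called (adjusted p = 0.609). The genotypes lay closer in room air (median -0.33) than in hyperoxia (median 1.09), where 16 members were higher and 1 lower in SK HO than in WT HO. Lamc3 was singled out after its value was seen.

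Of 29 measured collagen genes, 11 were called positive and 1 negative, with medians of -0.75 in WT and 0.06 in SK pups (8 to 16 called with 1 array left out). Col6a3, a chain of the beaded microfibrils around cells, read 9.18, 8.92 and 9.10 in WT RA and 7.28, 7.10 and 7.01 in WT HO, while the 6 SK arrays read 8.61 to 9.13 (1.82 ± 0.22, adjusted p = 0.000746). Of 19 elastic fibre genes, 2 were called positive and 2 negative, a count of 9 without SK HO 2, with medians of -0.84 in WT and -0.47 in SK pups. Fbn2, the fibrillin of the growing lung, fell from 7.66, 7.27 and 7.66 to 4.12, 4.35 and 4.22 in WT pups, and read 6.28, 6.50 and 6.27 in SK RA and 7.06, 6.75 and 7.41 in SK HO. Only the WT fall was called, and the interaction was 4.03 ± 0.25 (adjusted p = 1.75e-05). Among 21 hyaluronan and proteoglycan genes 6 were positive, with Hmmr, which is also in the mitotic list, among them, and 2 were negative. Hapln1, which ties proteoglycans to hyaluronan, read 6.72, 6.93 and 6.91 in WT RA, 3.36, 3.71 and 3.77 in WT HO, 5.03, 6.18 and 5.90 in SK RA and 8.43, 7.47 and 8.52 in SK HO. It fell by 3.24 in WT pups and rose by 2.43 in SK pups, where the 3 SK HO arrays lay above all 9 others (5.68 ± 0.45, adjusted p = 4.74e-05). Vcan, the proteoglycan versican, fell by 0.81 and rose by 1.37, and Has2, a hyaluronan synthase, rose in SK pups alone (1.26, adjusted p = 0.0293).

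Most imprinted growth genes, which are expressed from 1 parental copy and are high in fetal and newborn tissue, had a positive interaction. Of 19 measured, 12 were called positive and Dcn, the proteoglycan decorin, negative, with medians of -1.27 in WT and 0.08 in SK pups. Peg3, a zinc finger gene expressed from the paternal copy, read 10.49, 10.41 and 10.30 in WT RA, 10.73, 10.36 and 10.22 in SK RA and 10.12, 10.15 and 9.88 in SK HO, but 7.50, 7.80 and 7.47 in WT HO. WT HO alone stood apart, and the interaction was 2.42 ± 0.23 (adjusted p = 0.00012). Mest fell by 3.01 in WT pups and its SK response was -0.55 (adjusted p = 0.117), and Dlk1, a Notch ligand relative that holds back differentiation, fell by 2.49 against 0.47 (adjusted p = 0.48). SK RA lay below WT RA in 3 of 19 genes, and SK HO above WT HO in 12. Dcn was named after its value was seen.

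In the insulin-like growth factor system 6 of 13 genes had an interaction and 4 of the 6 were reversed. Igf1, the growth factor, fell from 7.60, 7.57 and 7.23 to 6.46, 6.38 and 6.27 in WT pups and rose from 7.15, 7.24 and 7.11 to 8.18, 7.81 and 7.77 in SK pups (1.85 ± 0.21, adjusted p = 0.000438). Igf2r, the receptor that clears IGF2, read 9.18, 9.17 and 9.02 in WT RA and 8.34, 8.21 and 8.25 in WT HO, and 8.40, 8.36 and 8.44 in SK RA and 9.65, 9.50 and 9.78 in SK HO. Its groups crossed: SK RA lay near WT HO, and SK HO lay above all other arrays. Igf2bp3, an RNA-binding protein of fetal tissue, fell by 2.38 and rose by 1.30, and Igfbp6, which binds IGF2, rose by 1.82 and fell by 1.05. Of 33 Wnt pathway genes 5 were called (15.2%, against 7.05% of all gene symbols), all positive. The count was 10 without SK HO 2 and 3 without any 1 of WT RA 2, WT RA 3, SK RA 1, SK RA 2, WT HO 1, WT HO 2, SK HO 1 or SK HO 3. Wnt2, a mesenchymal ligand that drives lung outgrowth, fell from 7.59, 7.85 and 8.12 to 5.21, 5.69 and 4.96 in WT pups, while SK RA read 5.78, 6.97 and 6.83 and SK HO 6.51, 6.41 and 7.17 (2.73 ± 0.46, adjusted p = 0.00565).

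**Figure D3:**
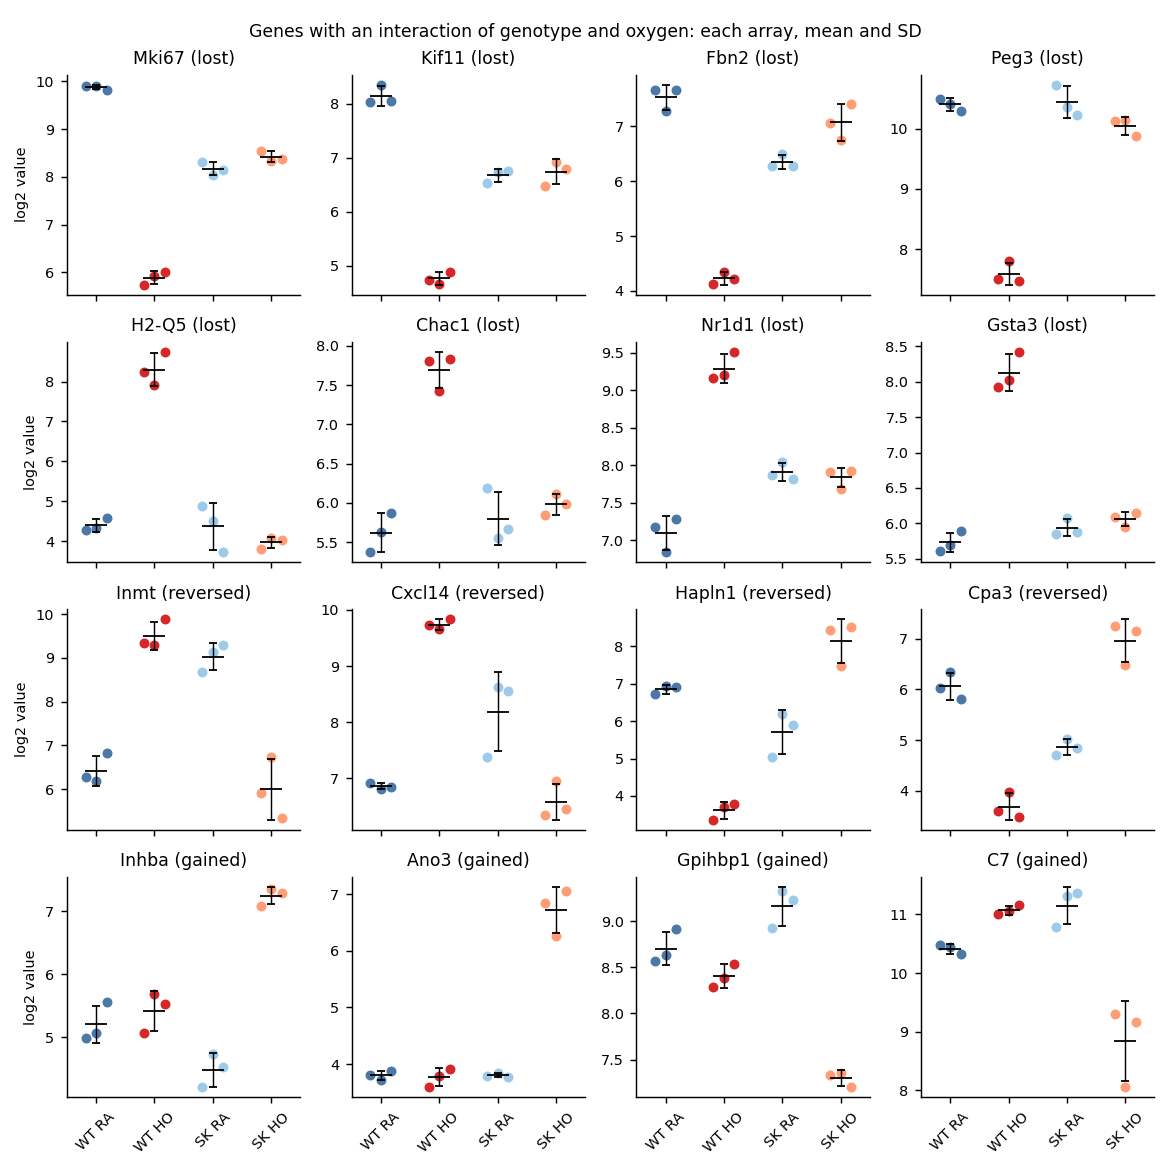
Log2 expression of 16 genes on each of the 12 arrays (vertical axis, 1 panel a gene), with the mean and SD of each group of 3. Mki67, Kif11, Fbn2 and Peg3 are lowest in WT HO, H2-Q5, Chac1, Nr1d1 and Gsta3 are highest in WT HO, Inmt, Cxcl14, Hapln1 and Cpa3 move in opposite directions in the genotypes, and Inhba, Ano3, Gpihbp1 and C7 move in SK HO.

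Some of the stress genes that rose in WT pups rose less, or not measurably, in SK pups. Of 16 genes of the integrated stress response, in which ATF4 and its partners answer amino acid shortage and unfolded protein, 9 were called negative, 6 of them lost and 3 weakened, with medians of 1.77 in WT and 0.55 in SK pups. The count was 5 without SK RA 2, WT HO 2 or WT HO 3. Chac1, which breaks down glutathione, rose from 5.37, 5.63 and 5.87 to 7.81, 7.43 and 7.83 in WT pups and read 6.19, 5.55 and 5.67 in SK RA and 5.85, 6.11 and 5.98 in SK HO (-1.89 ± 0.28, adjusted p = 0.0026). Trib3, a pseudokinase induced under this stress, rose from 5.42, 5.77 and 5.97 to 8.09, 8.13 and 8.30 in WT pups, and in SK pups the arrays read 6.14, 5.80 and 5.81 and then 5.89, 6.95 and 6.46 (-1.94 ± 0.34, adjusted p = 0.00752). In both genes WT HO lay above all 9 other arrays. The promoters of these genes are printed because ATF4 is known to act through sites with the core TGATGNAA. They are RefSeq, GRCm38.p6, from 250 bases before the start to 50 from it, with the core or its reverse complement TTNCATCA in capitals. Chac1 is at chr2:119350992-119351291 on the plus strand and Trib3 at chr2:152344011-152344310 on the minus strand.
Chac1: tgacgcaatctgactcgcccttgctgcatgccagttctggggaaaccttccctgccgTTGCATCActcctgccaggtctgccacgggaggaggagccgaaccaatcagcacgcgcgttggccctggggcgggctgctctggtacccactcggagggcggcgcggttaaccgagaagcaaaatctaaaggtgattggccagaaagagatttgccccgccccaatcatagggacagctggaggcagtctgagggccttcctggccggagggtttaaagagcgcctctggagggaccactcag
Trib3: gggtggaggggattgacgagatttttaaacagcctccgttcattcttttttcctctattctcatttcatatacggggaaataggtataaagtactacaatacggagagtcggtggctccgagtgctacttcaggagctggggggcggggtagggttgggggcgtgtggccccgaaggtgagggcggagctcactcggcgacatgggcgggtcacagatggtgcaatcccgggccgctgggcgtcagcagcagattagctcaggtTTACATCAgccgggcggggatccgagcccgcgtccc
The core stood in 5 of the 14 promoters found for the list (35.7%), against 4.06% of all 27025 mouse promoters. In the wider class of lost rises it stood in 13 of 433 promoters (3.0%), so that class held no excess of it. The list holds genes of this response chosen with earlier results known, and a match does not show a bound site.

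Of 15 NRF2 targets, the antioxidant genes, 13 rose in WT and 5 in SK pups, with medians of 1.64 and 0.79. Gsta3, a glutathione S-transferase, rose from 5.61, 5.69 and 5.89 to 7.93, 8.02 and 8.42 in WT pups, while all 6 SK arrays read 5.85 to 6.15 (-2.27 ± 0.22, adjusted p = 0.000124). In this list 4 interactions were called, and 2 without any 1 of WT RA 1, WT RA 2, WT RA 3, SK RA 2, SK RA 3, WT HO 1, WT HO 3 or SK HO 3. Of 17 immediate early genes 12 rose in WT and 5 in SK pups, and 4 interactions were called (2 without WT RA 2). Fos, a subunit of AP-1, rose in both genotypes, from 6.29, 6.04 and 6.52 to 9.14, 9.09 and 9.30 in WT and from 6.69, 6.49 and 6.84 to 7.68, 8.16 and 8.03 in SK pups. Its response was weakened, 2.89 against 1.28 (-1.61 ± 0.24, adjusted p = 0.00276).

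Several inflammatory and macrophage genes rose steeply in WT pups and less, or not measurably, in SK pups. Of 18 alveolar macrophage genes 7 were called negative, with medians of 1.17 in WT and 0.00 in SK pups. Ctsk, the protease cathepsin K, read 5.52, 6.22 and 5.71 in WT RA, 8.47, 8.18 and 8.45 in WT HO, 6.16, 6.47 and 6.62 in SK RA and 5.97, 6.16 and 5.84 in SK HO (-2.98 ± 0.28, adjusted p = 0.000117). Chil3, a chitinase-like protein secreted by macrophages, read 6.39, 6.50 and 6.64 in WT RA and 11.17, 11.01 and 11.33 in WT HO. Its SK arrays read 8.04, 8.79 and 8.68 in room air and 5.83, 9.15 and 5.29 in hyperoxia (-6.41 ± 1.05, adjusted p = 0.00496). The SK response of -1.75 was not called (adjusted p = 0.312). SK HO 2 lay apart from the other SK HO arrays here and in Serpina3n, an acute phase inhibitor of proteases that read 11.99, 12.03 and 12.11 in WT HO and 9.21, 11.16 and 8.12 in SK HO. Of 19 acute phase genes 3 were called negative and 1 positive, Saa3 (2.59, called in 3 of the 12 fits without 1 array), and the count was 9 without SK HO 2 and 2 without WT RA 1, WT RA 3, SK RA 2, SK RA 3 or WT HO 3. The interactions of Chil3 and Serpina3n were called whichever array was left out, at adjusted p of 1.03e-05 to 0.0163 for Chil3 and 0.000175 to 0.0305 for Serpina3n. H2-Q5, a class I histocompatibility gene, read 8.24, 7.92 and 8.74 in WT HO and 3.72 to 4.88 on the 9 other arrays (-4.31 ± 0.39, adjusted p = 0.000107). Its family has near-identical members, so which of them the probes read is uncertain. Ptgs2, the inducible cyclooxygenase, rose in both genotypes, by 4.14 in WT and 1.86 in SK pups (-2.27 ± 0.43, adjusted p = 0.0111).

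Of 20 glucocorticoid-responsive genes 8 were called negative (14 without SK HO 2) and 12 were not called, with medians of 1.25 in WT and -0.14 in SK pups, and the list was higher in SK RA than in WT RA by a median of 0.59. Klf9, a repressor of proliferation, read 8.94, 9.24 and 9.03 in WT RA and 10.25, 10.58 and 10.29 in WT HO, and went the other way in SK pups, from 10.28, 10.78 and 10.61 to 9.45, 10.10 and 9.17. Zbtb16, a zinc finger repressor, read 6.57, 6.17 and 5.51 in WT RA, 9.21, 9.13 and 8.51 in WT HO, 9.41, 9.16 and 8.99 in SK RA and 5.12, 8.33 and 5.63 in SK HO (-5.69 ± 0.92, adjusted p = 0.00452). SK HO 2 again lay nearest WT HO. Tsc22d3, the anti-inflammatory protein GILZ, rose by 0.71 and fell by 0.87, and Map3k6, a stress kinase, rose by 2.66 in WT pups alone. Of 15 clock genes 6 were called negative and the other 9 were not called. Nr1d1, the repressor REV-ERB alpha, rose from 7.18, 6.84 and 7.29 to 9.16, 9.21 and 9.51 in WT pups and stayed at 7.69 to 8.04 on the 6 SK arrays, which lay between the WT groups (-2.26 ± 0.22, adjusted p = 0.000147). The hour of collection is not given, so its part in these values was not tested. Ciart, a repressor of the CLOCK complex, read 5.51, 4.87 and 5.02 in WT RA, 6.72, 6.71 and 6.20 in WT HO and 5.46 to 6.32 on the SK arrays (-1.73 ± 0.31, adjusted p = 0.00829). Its promoter is printed for its E-boxes, CACGTG, in capitals, the letters that CLOCK and its partner are known to bind (RefSeq, GRCm38.p6, chr3:95882179-95882478, minus strand).
Ciart: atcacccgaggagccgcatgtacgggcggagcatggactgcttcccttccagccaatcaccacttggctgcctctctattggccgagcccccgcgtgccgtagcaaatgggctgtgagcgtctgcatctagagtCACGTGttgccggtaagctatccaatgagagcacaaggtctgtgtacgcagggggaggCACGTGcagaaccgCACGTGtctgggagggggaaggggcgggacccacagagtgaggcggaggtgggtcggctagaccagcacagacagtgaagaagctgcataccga
An E-box stood in 5 of 14 clock promoters (35.7%) and in 45 of 433 promoters of lost rises (10.4%), against 7.24% of all mouse promoters. Here too a match does not show a bound site. Ciart and Tef were called for the interaction among these 5, and Per1, Bhlhe41 and Cry1 were not.

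**Figure D4:**
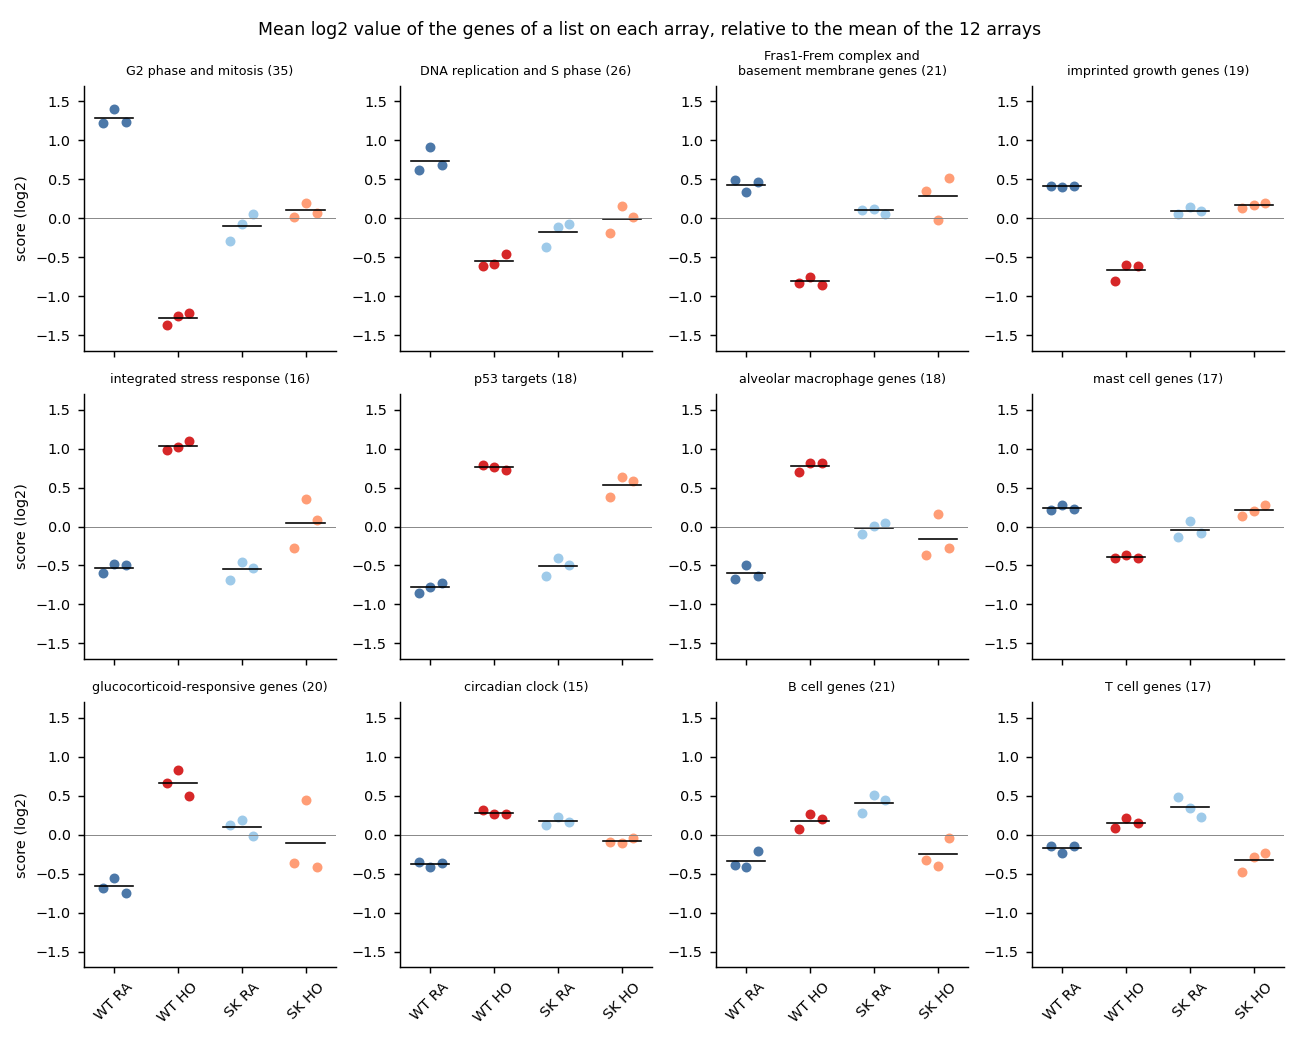
Mean log2 expression of 12 gene lists on each array, relative to the mean of the 12 arrays (vertical axis, 1 panel a list), with the group mean as a line. Mitotic genes lie at 1.22 to 1.40 in WT RA and -1.37 to -1.22 in WT HO with both SK groups between, p53 targets rise in both genotypes, and B and T cell genes are highest in SK RA.

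Some B and T cell genes crossed, with WT HO above WT RA and SK HO below SK RA: 4 of 21 B cell and 3 of 17 T cell genes were reversed. Of 21 B cell genes 11 were called negative, with medians of 0.49 and -0.66, and 7 were higher in SK RA than in WT RA. Cd79a, a signalling chain of the B cell receptor, read 5.37, 5.67 and 5.84 in WT RA, 6.34, 6.78 and 6.79 in WT HO, 6.71, 7.17 and 7.13 in SK RA and 5.82, 5.64 and 6.07 in SK HO (-2.17 ± 0.27, adjusted p = 0.000904). Cd22, an inhibitory receptor of B cells, rose by 1.10 and fell by 0.66. Of 17 T cell genes 6 were called negative, and 3 without SK RA 2. Il7r, the interleukin 7 receptor, read 4.10, 4.10 and 4.01 in WT RA, 6.63, 6.80 and 6.24 in WT HO, 5.93, 5.84 and 5.94 in SK RA and 4.39, 5.23 and 5.10 in SK HO, so that SK HO lay between the WT groups (-3.48 ± 0.30, adjusted p = 7.38e-05). Cd8a, the coreceptor of cytotoxic T cells, rose by 0.74 and fell by 0.93. Of 15 NK and cytotoxic genes 5 were called negative, all of them lost rises, and 3 without WT RA 1, WT RA 3 or SK RA 2. Gzma, granzyme A, rose by 2.11 in WT pups and its SK response was -0.34 (adjusted p = 0.69). A lobe taken with thymus or fat would carry their genes: the 9 thymocyte genes, 1 of them called, averaged -0.23 to 0.28 relative to the 12-array mean, while the 14 adipocyte genes, 4 of them called negative, averaged 1.50 and 0.34 on arrays WT HO 2 and WT HO 3 and 1.09 on array SK RA 1, against -0.48 to 0.06 on the other 9 arrays. The part of such tissue in the lymphocyte values was not tested.

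Mast cell proteases and stefins ran opposite to the lymphocytes. Of 17 mast cell genes 4 were called positive, all 4 reversed and all proteases, and Gata2, a transcription factor also expressed in endothelium, was negative (named after its value was seen). Cpa3, carboxypeptidase A3, fell from 6.02, 6.34 and 5.81 to 3.60, 3.98 and 3.49 in WT pups and rose from 4.71, 5.02 and 4.84 to 7.25, 6.48 and 7.16 in SK pups (4.47 ± 0.32, adjusted p = 2.4e-05). Tpsb2, a tryptase, fell by 1.08 and rose by 1.68, Mcpt4, a chymase, fell by 1.31 and rose by 1.48, and Cma1, another chymase, fell by 0.84 and rose by 1.62. Proteases of these families resemble each other, so single rows may share signal. Of 9 stefin A genes, inhibitors of cathepsins, 6 were called positive, and 3 without WT RA 3, SK RA 3, WT HO 1 or WT HO 3. Stfa1 read 8.56, 8.91 and 9.15 in WT RA, 5.41, 4.65 and 4.37 in WT HO, 7.93, 7.95 and 7.41 in SK RA and 9.60, 10.19 and 9.24 in SK HO (5.97 ± 0.43, adjusted p = 2.7e-05). These genes are near-identical copies, so their values are uncertain singly. Of 19 neutrophil genes only the granule genes Ngp and Camp were called, both positive. That share, 10.5%, was near the 7.05% of all gene symbols. Ngp fell by 1.83 in WT pups and rose by 1.36 in SK pups.

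Of 19 club and secretory airway genes of the epithelium 8 were called negative, 4 lost rises, 3 reversed and 1 a gained fall, with medians of 0.66 in WT and -0.48 in SK pups. Cyp4b1, an oxidase of club cells, rose from 8.25, 8.12 and 8.38 to 10.99, 11.17 and 11.13 in WT pups, while SK RA read 8.84, 9.21 and 9.35 and SK HO 9.37, 9.30 and 9.47 (-2.60 ± 0.21, adjusted p = 5.03e-05). Fmo2, the lung flavin monooxygenase, rose from 9.04, 8.94 and 9.48 to 10.84, 10.76 and 10.69 in WT pups and fell from 10.75, 10.73 and 10.85 to 9.42, 9.90 and 8.87 in SK pups. SK RA thus read like WT HO for this gene, and SK HO like WT RA. Of 20 type 1 alveolar cell genes 7 were called positive and 1 negative. The list was split in WT pups, where 7 rose and 6 fell (median 0.31), and 6 rose in SK pups (median 0.55). The type 1 markers Aqp5 and Hopx rose in WT pups, by 1.29 and 1.34, and had no called interaction. Rtkn2, used as a type 1 marker, fell from 8.86, 8.69 and 8.81 to 6.99, 6.92 and 7.39 in WT pups and read 8.52 to 9.41 on the SK arrays (2.11 ± 0.24, adjusted p = 0.000491). Of 18 type 2 cell genes 5 were called, all positive, and 2 without WT RA 1, WT RA 2, WT HO 1, WT HO 2 or SK HO 3 (3 without SK RA 1, SK RA 2, SK RA 3 or SK HO 1). Dlk1, named above among the imprinted genes, was 1 of these 5. Fasn, the fatty acid synthase that feeds surfactant lipid, fell from 9.86, 9.90 and 9.82 to 8.52, 8.71 and 8.78 in WT pups, and its SK response of 0.11 was not called (adjusted p = 0.768). Of 19 genes of injured transitional epithelium, 16 rose in WT and 7 in SK pups, and 5 interactions were called, a count of 10 without SK HO 2 and 3 without any 1 of 10 other arrays (4 without SK RA 1).

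A few fibroblast and vascular genes were reversed. Inmt, a methyltransferase and marker of alveolar fibroblasts, read 6.27, 6.18 and 6.82 in WT RA, 9.35, 9.29 and 9.88 in WT HO, 8.69, 9.13 and 9.29 in SK RA and 5.92, 6.74 and 5.34 in SK HO (-6.11 ± 0.46, adjusted p = 3.09e-05). Cxcl14, a chemokine of the same cells, rose by 2.88 and fell by 1.60, and Pdgfra, the receptor that drives alveolar myofibroblasts, read 9.26, 9.53 and 9.63 in WT RA, 11.04, 11.07 and 10.83 in WT HO, 10.35, 10.48 and 10.58 in SK RA and 7.83, 9.44 and 8.28 in SK HO (-3.46 ± 0.45, adjusted p = 0.00106). Their lists as wholes did not share this: of 19 matrix fibroblast and lipofibroblast genes 5 were negative and 1 positive, and of 20 myofibroblast and smooth muscle genes 3 were negative and 5 positive. Of 25 capillary and aerocyte endothelial genes 3 were called positive and 2 negative (3 in all without any 1 of WT RA 1, WT RA 2, WT RA 3, SK RA 2, WT HO 1, WT HO 2, SK HO 1 or SK HO 3), and 1 of these was reversed. That gene, Nos3, the endothelial nitric oxide synthase, rose from 7.48, 7.17 and 7.16 to 8.22, 8.19 and 7.92 in WT pups and fell from 7.48, 7.64 and 7.45 to 6.66, 6.94 and 6.68 in SK pups (-1.60 ± 0.20, adjusted p = 0.000947). Ptgis, the prostacyclin synthase, likewise rose by 1.19 and fell by 0.89 (-2.08 ± 0.20, adjusted p = 0.000154). In both genes SK HO lay below all 9 other arrays. Ednrb, an endothelin receptor of capillary cells, had a positive interaction: it fell from 9.76, 10.02 and 9.61 to 7.10, 7.50 and 7.44 in WT pups and less in SK pups, from 9.03, 9.78 and 9.71 to 8.62, 8.38 and 8.61 (1.48 ± 0.29, adjusted p = 0.0139).

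Responses gained in SK pups were fewer, 49 rises and 93 falls. Ano3, of the anoctamin family of membrane proteins, read 3.59 to 3.92 on all 9 other arrays and 6.85, 6.26 and 7.06 in SK HO (2.95 ± 0.26, adjusted p = 9.32e-05). Inhba, a subunit of activin A, read 7.09, 7.36 and 7.30 in SK HO and 4.20 to 5.68 elsewhere (2.55 ± 0.30, adjusted p = 0.00052). In both genes the SK HO arrays lay above all others and WT pups showed no called response. Itgb6, the integrin chain that activates TGF-beta on injured epithelium, rose by 1.25 and Spink5, a protease inhibitor, by 2.32 in SK pups. Among the gained falls, C7, a complement component, dropped from 10.78, 11.31 and 11.37 to 9.30, 8.05 and 9.16, and Gpihbp1, which anchors lipoprotein lipase in capillaries, from 8.93, 9.33 and 9.23 to 7.33, 7.36 and 7.20. WT arrays read 10.32 to 11.16 and 8.29 to 8.91 for these genes. A different kind of gained fall was BC018473, which read 3.45 to 3.82 on the 6 WT arrays, 7.48, 7.12 and 7.17 in SK RA and 5.01, 5.68 and 5.31 in SK HO, and so differed by genotype in both conditions. Its WT values lay under every array median (4.76 or more), so a fall in WT pups may not have been measurable. Strengthened responses included Psrc1, a microtubule-binding protein, which rose by 1.18 in WT and 2.61 in SK pups, and Gtse1, expressed in G2 and S phase, which rose by 0.58 and 1.77, upward where the mitotic list fell. Neither of these genes is a member of that list. For Gtse1 the hyperoxia means were close, 7.3 in WT HO and 7.38 in SK HO (0.08, adjusted p = 0.823). Its genotypes parted in room air, with means of 6.72 for WT and 5.61 for SK pups (-1.11, adjusted p = 0.00443). Psrc1 instead differed in hyperoxia (0.86, adjusted p = 0.00569) and not measurably in room air (-0.57, adjusted p = 0.106). Of the 11 strengthened rows, 5 had a called genotype difference in room air and 1 in hyperoxia.

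Genes of sphingolipid and S1P metabolism, the pathway of the deleted enzyme, moved in both directions. Of 30 measured, 9 rose and 3 fell in WT pups, 2 fell in SK pups, and 6 had an interaction, 5 of them negative, a count of 9 without SK RA 1 and of 3 without any 1 of WT RA 1, WT RA 2, WT RA 3, SK RA 2, SK RA 3, WT HO 2, WT HO 3, SK HO 1 or SK HO 3, and the list's median responses were 0.06 in WT and 0.04 in SK pups. S1pr1, an S1P receptor of endothelium and lymphocytes, read 9.87, 10.14 and 9.79 in WT RA, 11.10, 11.26 and 11.00 in WT HO, 10.03, 10.41 and 10.25 in SK RA and 10.18, 10.52 and 10.07 in SK HO (-1.16 ± 0.23, adjusted p = 0.0149). It rose in WT pups alone, as the Sphk1 row did. Mfsd2b, the S1P exporter of red cells and platelets, fell by 0.69 in WT pups, and its SK response of 0.87 was not called (adjusted p = 0.0573). The median response of each of the 47 lists is plotted by genotype.

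**Figure D5:**
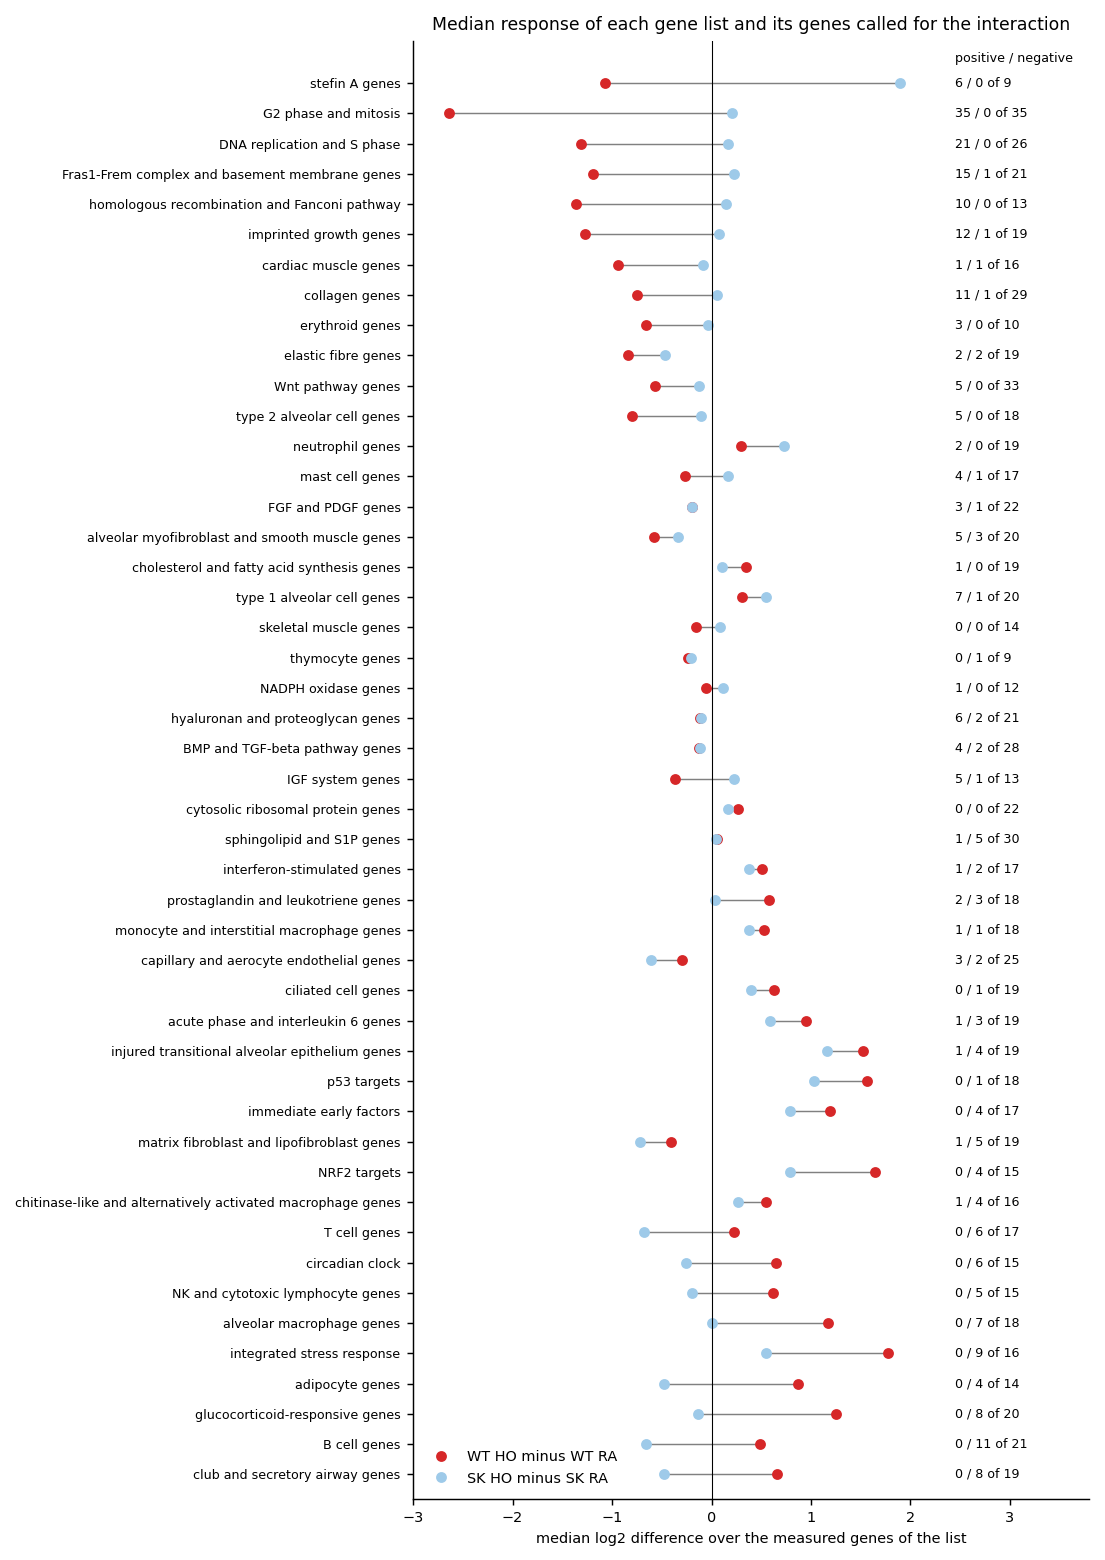
Median log2 response to hyperoxia of the measured genes of 47 lists (horizontal axis), in WT pups (red) and SK pups (light blue), with the number of members called positive or negative for the interaction beside each list. The mitotic list lies at -2.64 and 0.21, the integrated stress response at 1.77 and 0.55, B cell genes at 0.49 and -0.66, and cytosolic ribosomal protein genes at 0.27 and 0.17.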

How the data were processed

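RNA from 12 right superior lung lobes was hybridised to Affymetrix mouse gene arrays. The deposited values are log2 expression after the authors' robust multi-array average normalization, and the deposited table of 41345 rows was used as it stands. Depth has no meaning for arrays, and 3 arrays a group limit the precision. The platform annotation gave 1 gene symbol to 23521 rows, several to 1820 and none to 16004.

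The methods used a 2-way ANOVA. Here the 4 groups were fitted together with limma 3.58.1 in R 4.3.3 (lmFit and eBayes, prior degrees of freedom 3.247), with the interaction and the 4 pairwise differences as contrasts and Benjamini-Hochberg adjustment over 41345 rows at 0.05. Rows were sorted into classes by which genotype's response was called. The fit was also run on simulated data with known interactions placed in the SK HO group alone. Its outcome is not reported here and bears on that case only. Named genes are the 4 with the largest estimate in each class and direction, up to 4 members a list by smallest adjusted p, Sphk1 and lung markers, and where several rows carry a symbol the row with the highest mean stands for it. Genes outside that rule are marked where named. Members and lists were chosen with earlier results of these data known. Promoters were matched by symbol and the first listed of each gene was used.

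Alternatives were an ordinary ANOVA variance, a trended robust variance, a filter on dim rows, quantile normalization and arrays shifted to the same median. Others were 1 row per gene, a minimum interaction of 1, responses called at an unadjusted p and a Y-linked covariate. SK RA 1 and SK HO 1 were also left out together, each array was left out, and the replicate number was used as a block. Dim rows were those whose highest group mean was under 4.289, the 40th percentile of all group means.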

Additional observations from a re-analysis of the deposited data

Results flagged for a closer look

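The difference between genotypes in the hyperoxia response was itself tested in each row, and 1979 rows passed, so that the same exposure gave unlike responses in WT and SK pups. In 108 rows the response was called in both genotypes with opposite signs. Genes with large values of this kind were Stfa3 (6.47), Stfa1 (5.97), Hapln1 (5.68) and Fras1 (4.61), higher in the SK response, and Inmt (-6.11), Zbtb16 (-5.69), Cxcl14 (-4.48) and Cidec (-3.52), a lipid droplet protein gene, lower in it. Groups of 3 arrays are too small to test for a single array far from the others.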

How the results depend on the processing

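The count of 1979 interactions was 1731 with the ordinary ANOVA variance, 2163 with the trended robust variance, 2490 with dim rows left out, 2050 after quantile normalization, 1514 with arrays shifted to the same median, 1752 with the Y-linked covariate, 1613 without SK RA 1 and SK HO 1, 2293 with 1 row per gene and 2204 with the replicate block, and it ran from 1349 to 2365 with 1 array left out. The sources do not say that the replicate numbers pair pups. Deviations of same-numbered arrays correlated at -0.0609 to 0.398 (median 0.0978) and of other arrays at -0.294 to 0.225 (median -0.0548). Deviations cancel within a group, which ties these ranges together, so they cannot decide whether same-numbered arrays share a source of deviation. By a set rule that every same-numbered pair be above 0.1, the replicate block was kept as an alternative only. Rows called whichever array was left out were 1140 (57.6%). The split was 906 positive and 1073 negative, 1048 and 1002 after quantile normalization and 902 and 850 with the Y-linked covariate. With 1 array left out, positive calls ran from 651 to 1072, negative calls from 688 to 1293 and lost rows from 1036 to 1950.

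The small classes moved most. Weakened rows were 39, and 70 with dim rows left out, 20 with arrays shifted, 19 with the Y-linked covariate, 89 with 1 row per gene, 165 with unadjusted responses and 11 to 45 with 1 array left out. Reversed rows were 108, and 170 with dim rows left out, 71 with arrays shifted, 186 with 1 row per gene, 581 with unadjusted responses and 55 to 112 with 1 array left out. Gained rows were 142, and 90 with arrays shifted and 82 to 153 with 1 array left out. Strengthened rows were 11, and 6 with arrays shifted, 5 with the Y-linked covariate, 6 at a minimum interaction of 1 and 3 to 16 with 1 array left out. Rows called in neither genotype were 151, and 85 without SK RA 1 and SK HO 1, 0 with unadjusted responses, which then call at least 1 genotype, and 92 to 160 with 1 array left out. Other causes were not tested.

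Of 178 named genes with a called interaction, 148 kept it with the ANOVA variance, 174 after quantile normalization, 161 with arrays shifted, 157 with the Y-linked covariate, 149 without SK RA 1 and SK HO 1, 173 with the replicate block and 144 to 170 with 1 array left out, and no sign was reversed in these. With 3 pups a group, litter and mixed background cannot be separated from the groups, and the whole lobe mixes cell number with RNA per cell.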
